A study of Equus asinus with 12 samples.

Results

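The 10 genes described here encode enzymes of muscle glycolysis: GPI, PFKM, ALDOA, TPI1, PGK1, PGAM2, ENO3, PKM, LDHA and LDHB. Members were taken as the loci of the deposited table that carry one of these gene names, and where a name had more than 1 locus the one with the highest mean level was used. All 10 were found among the 27084 loci of the table, and all 10 passed the filter on low values that left 12408 loci for testing. PGAM2, TPI1 and PKM each had a second locus of the same name, with a mean of 0.00594, 0.0186 and 1.90 FPKM. Every level below is in FPKM, a fragment count scaled to transcript length and to the mapped total of the library.

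RNA was measured in skeletal muscle of the Dezhou donkey (Equus asinus), a large Chinese breed. Per the labels the animals belonged to 2 strains, Wutou and Sanfen, and all were 24 months old. The 4 groups of 3 libraries each were gluteal muscle of Wutou, longissimus dorsi of Wutou, gluteal muscle of Sanfen and longissimus dorsi of Sanfen, with no treatment. Gluteal muscle moves the hip and longissimus dorsi extends the spine. The design text names 6 donkeys as the source of the 12 libraries without tying a library to an animal. The p-values below therefore measure the spread between the libraries of a group.

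Glycolysis turns glucose, or glucose units released from glycogen, into pyruvate and makes ATP without oxygen. Fast-twitch muscle fibres depend on it during short, intense work and carry much larger amounts of its enzymes than slow-twitch fibres, which rely more on mitochondrial respiration. Several steps have a form made mainly in muscle: PFKM for phosphofructokinase, ALDOA for aldolase, PGAM2 for phosphoglycerate mutase and ENO3 for enolase. Lactate dehydrogenase is built from the subunits A and B, of which A prevails in fast muscle and B in heart and in oxidative fibres.

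Before the comparisons, 2 libraries stood apart in the genes that mark fibre types. Sanfen longissimus replicate 2 had the lowest summed FPKM over the 12 fast fibre markers found, 7513, against 10129 to 21217 in the other libraries. MYH2, a fast myosin heavy chain among these markers, was instead highest in this library, at 132.8 FPKM. The library also averaged -0.78 over 72 ribosomal protein genes on the log2(FPKM + 1) scale relative to the mean of all libraries. Sanfen gluteal replicate 1 had the next lowest fast fibre sum, 10129, and the highest slow fibre sum, 7757 FPKM. Muscle-defining genes such as ACTA1 and CKM were abundant in every library, with a sum of 24481 to 32061 FPKM over the 7 found of 8, while TCAP was not matched by name. All loci together summed to between 214564 and 319767 FPKM in a library, with 43.8% to 56.5% in the top 10 loci. Read depth is unknown, which leaves the counting error of a value without an interval. Identical values were found in 0 pairs of libraries.

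The enzyme genes were among the most abundant transcripts of the muscle. Together they held 2.06% to 4.74% of all FPKM in a library, and ALDOA alone supplied 56.7% to 68.0% of their sum. By mean FPKM over the 12 libraries, which is a level per transcript length, ALDOA ranked 8th of all loci with 6068 FPKM, ENO3 25th with 1240.2 FPKM and PGAM2 32nd with 920.03 FPKM. PFKM (375 FPKM), LDHA (330.2 FPKM), TPI1 (260.2 FPKM), PKM (191 FPKM), PGK1 (137 FPKM) and GPI (133 FPKM) followed within the first 142 loci. LDHB, with 37.4 FPKM, ranked 374th.

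Some neighbours in this order of levels were clearly apart and others were not. ALDOA exceeded ENO3 in 12 of 12 libraries, by 2.35 ± 0.26 on the log2 scale of the FPKM ratio (SD, n = 12 libraries), and ENO3 exceeded PGAM2 in 12 of 12 libraries, by 0.49 ± 0.63. PGAM2 exceeded PFKM in 11 of 12 libraries and GPI exceeded LDHB in 11 of 12. In the middle of the order the levels crossed: PFKM exceeded LDHA in 8 libraries, LDHA exceeded TPI1 in 9, TPI1 exceeded PKM in 8 and PGK1 exceeded GPI in 7. PGK1 and GPI were level on average, with a mean log2 ratio of 0.0019 ± 0.28.

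**Figure D1:**
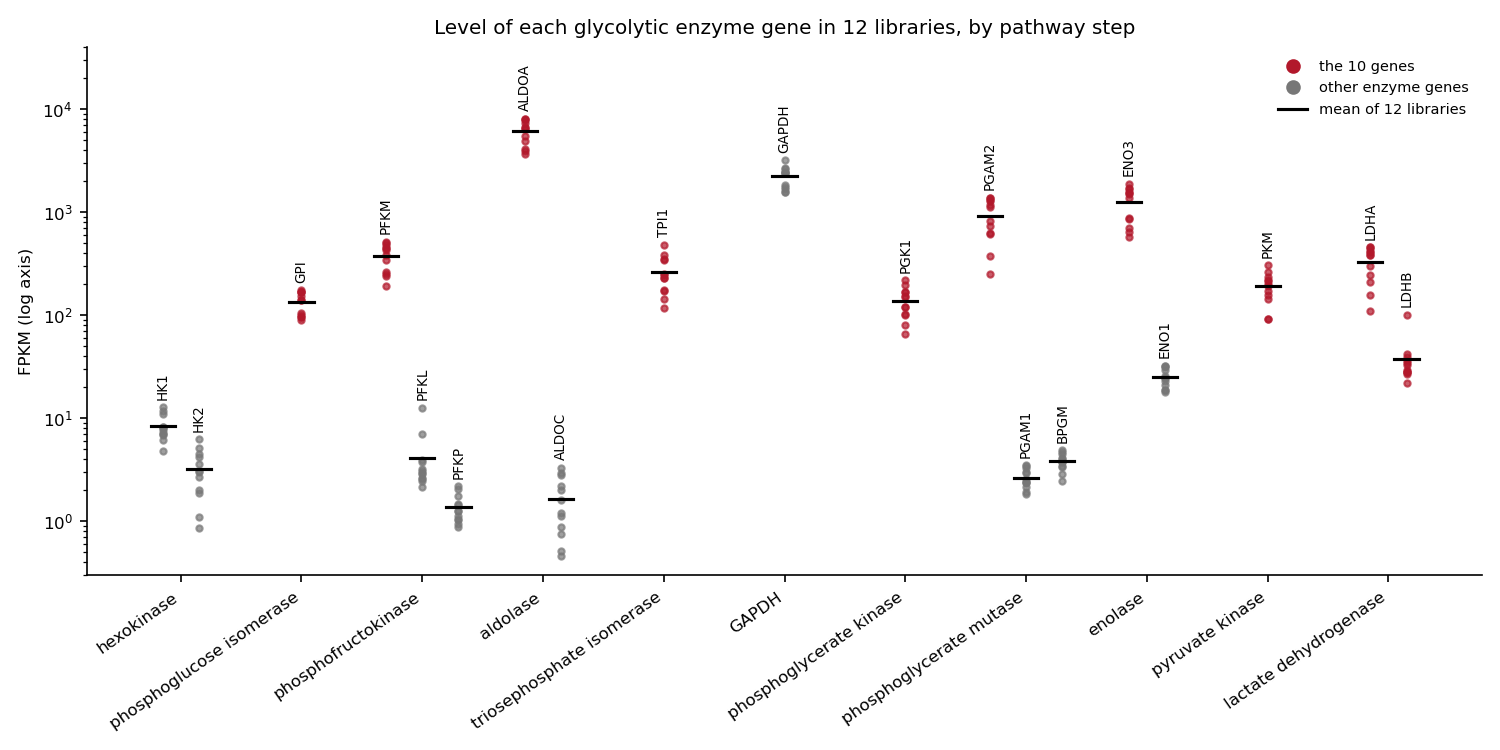
FPKM on a log axis of the 10 enzyme genes (red) and of other glycolytic enzyme genes (grey) in each of 12 libraries, arranged by pathway step, with a bar at the mean of the 12. ALDOA lies highest at a mean of 6068 FPKM, and at the phosphofructokinase, aldolase, mutase and enolase steps the red muscle form lies above every grey form.

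At the steps with several genes, the muscle form far exceeded the others on the FPKM scale. PFKM was 14.999 to 222 times PFKL, the liver form, across the 12 libraries. ALDOA was 1095 to 15101 times ALDOC, the brain form. PGAM2 was 104 to 754 times PGAM1, and ENO3 was 22.0 to 84.7 times ENO1, the form found in most tissues. ALDOC and PGAM1 were low, at 0.458 to 3.31 and 1.83 to 3.50 FPKM, so the ratios to them rest on small values. Hexokinase, which phosphorylates glucose when it enters from the blood, was low by comparison: HK1 averaged 8.32 FPKM and HK2, the form known from insulin-responsive muscle, 3.19 FPKM. BPGM, which makes 2,3-bisphosphoglycerate, averaged 3.82 FPKM. GAPDH, the dehydrogenase between aldolase and PGK1, averaged 2220.4 FPKM, but a second locus of the same description stood at 610.04 FPKM, so reads could be split between near-identical copies and its level is uncertain.

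The upper steps of the pathway were measured by GPI, PFKM, ALDOA and TPI1. GPI, which converts glucose 6-phosphate to fructose 6-phosphate, measured 105, 139 and 139 FPKM in Wutou gluteal, 174, 168 and 167 in Wutou longissimus, 90.4, 154 and 96.9 in Sanfen gluteal, and 101, 96.4 and 167 in Sanfen longissimus, for replicates 1, 2 and 3 in this order throughout. The 3 Wutou longissimus libraries were nearly equal and each lay above the other 9. The nearest of these was Sanfen longissimus replicate 3, by a very narrow gap between 167.39 and 167.27 FPKM. PFKM, the committed and regulated step, measured 251, 384 and 478 FPKM in Wutou gluteal, 431, 449.5 and 449 in Wutou longissimus, 241, 517 and 344 in Sanfen gluteal, and 263, 189.8 and 498 in Sanfen longissimus. Its Wutou longissimus values fell inside the range of each of the other groups.

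ALDOA, which splits fructose 1,6-bisphosphate, measured 4094, 6635 and 6379 FPKM in Wutou gluteal, 7837, 7932.5 and 6593 in Wutou longissimus, 3897, 8087 and 4951 in Sanfen gluteal, and 5465, 3626 and 7326 in Sanfen longissimus. The groups overlapped, and both the highest and the lowest library were Sanfen ones. TPI1, which interconverts the triose phosphates, measured 144, 231 and 482 FPKM in Wutou gluteal, 383, 343 and 251 in Wutou longissimus, 172, 227 and 351 in Sanfen gluteal, and 177, 118 and 244 in Sanfen longissimus. All Wutou longissimus libraries lay above all Sanfen longissimus libraries for TPI1, by a narrow gap between 251 and 244, and the highest library of all was Wutou gluteal replicate 3.

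The lower steps were measured by PGK1, PGAM2, ENO3 and PKM. PGK1, the first enzyme of the pathway to make ATP, measured 102, 169 and 151 FPKM in Wutou gluteal, 219.6, 197 and 155 in Wutou longissimus, 101, 119 and 80.6 in Sanfen gluteal, and 119.6, 65.8 and 168 in Sanfen longissimus. Its groups overlapped. PGAM2, whose loss in humans causes a muscle glycogen storage disease, measured 610.1, 252 and 1287 FPKM in Wutou gluteal, 1306, 1377 and 1375 in Wutou longissimus, 632, 1114 and 813 in Sanfen gluteal, and 729.5, 372 and 1173 in Sanfen longissimus. It was the most variable of the 10 genes, with the highest library 5.47 times the lowest, and its 3 Wutou longissimus values were above the other 9 libraries with a coefficient of variation of 2.98%.

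ENO3, the muscle enolase, measured 640.0, 1359.8 and 1701 FPKM in Wutou gluteal, 1659, 1884 and 1578 in Wutou longissimus, 694, 1547 and 881 in Sanfen gluteal, and 854, 573 and 1513 in Sanfen longissimus. Wutou longissimus did not overlap with Sanfen longissimus, and Wutou gluteal replicate 3 stood inside the Wutou longissimus range. PKM, which makes pyruvate and the second ATP, measured 143, 235 and 202 FPKM in Wutou gluteal, 172, 217 and 217 in Wutou longissimus, 91.6, 264 and 156 in Sanfen gluteal, and 193, 92.4 and 306 in Sanfen longissimus. All 4 groups overlapped for PKM, and the highest library was Sanfen longissimus replicate 3.

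At the exit to lactate, LDHA, the fast muscle subunit, measured 110.2, 435 and 388 FPKM in Wutou gluteal, 383, 454 and 413 in Wutou longissimus, 247, 407 and 211 in Sanfen gluteal, and 302, 158 and 455 in Sanfen longissimus. Wutou gluteal replicate 1 was lowest by far. LDHB, the heart subunit, measured 28.0, 32.9 and 34.6 FPKM in Wutou gluteal, 22.2, 28.1 and 26.7 in Wutou longissimus, 101, 35.9 and 39.7 in Sanfen gluteal, and 28.2, 41.7 and 29.5 in Sanfen longissimus. In each muscle all Wutou libraries lay below all Sanfen libraries for LDHB, by 28.1 against 28.2 FPKM in longissimus, and Sanfen gluteal replicate 1 stood far above the rest.

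**Figure D2:**
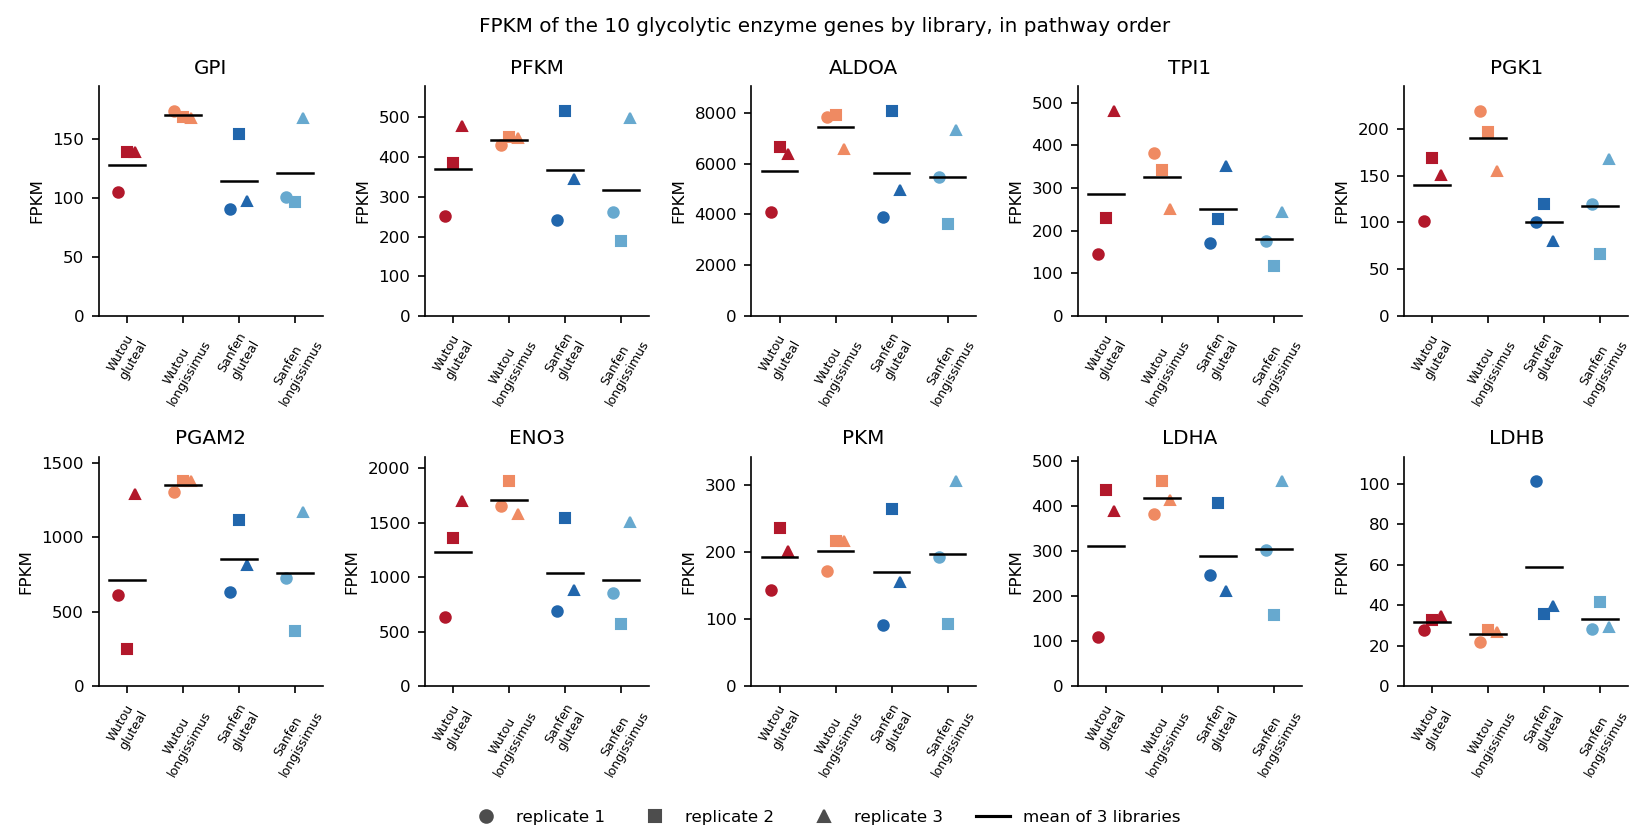
FPKM of each of the 10 genes (panels in pathway order, linear axes from 0) in the 4 groups, with 1 symbol per library and a bar at the mean of 3. The 3 Wutou longissimus libraries lie close together for GPI, PFKM and PGAM2, and LDHB is the gene whose highest library, at 101 FPKM, is Sanfen gluteal replicate 1.

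Across the libraries 9 of the 10 genes largely moved up and down together, and LDHB often did not follow. Taking each gene relative to its own mean of log2(FPKM + 1), the 9 genes other than LDHB averaged -0.89 in Sanfen longissimus replicate 2, -0.60 in Wutou gluteal replicate 1 and -0.54 in Sanfen gluteal replicate 1. In each of these 3 libraries 0 of the 9 genes stood above its own mean. All 9 stood above their means in Wutou gluteal replicate 3, in Wutou longissimus replicates 2 and 3 and in Sanfen longissimus replicate 3, where they averaged 0.40, 0.51, 0.35 and 0.43. LDHB stood at 1.53 in Sanfen gluteal replicate 1 and at 0.27 in Sanfen longissimus replicate 2, where the other 9 were low, and at -0.61, -0.28 and -0.35 in the Wutou longissimus libraries. It was low along with the others in Wutou gluteal replicate 1, at -0.29. The same held in Sanfen longissimus replicate 1, where LDHB stood at -0.28 and the 9 genes averaged -0.22.

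The groups differed in how far their libraries spread. The mean deviation of the 9 genes was -0.061 ± 0.51 in Wutou gluteal, 0.43 ± 0.082 in Wutou longissimus, -0.14 ± 0.44 in Sanfen gluteal and -0.23 ± 0.66 in Sanfen longissimus (SD, n = 3 libraries each). Wutou longissimus was thus the tight group, and the other groups each held at least 1 library low in nearly all 9 genes. The difference in spread was not tested, since 3 libraries give little information on a variance.

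Ratios between genes within a library, which no scaling of the library can alter, varied less than the genes themselves. Over the 36 pairs among the 9 genes, the SD of the log2 ratio across 12 libraries was 0.17 to 0.78 with a median of 0.40, against 0.37 to 0.80 with a median of 0.54 for single genes on the log2 scale of FPKM. Over the 9 pairs that include LDHB it was 0.84 to 1.11. The steadiest pair was ALDOA and GPI, at a ratio of 37.6 to 54.3, followed by ALDOA and PFKM at 13.3 to 20.8. PGAM2 was the loosest of the 9, with an SD of 0.60 to 0.78 against each of the other 8. Its ratio to ALDOA was 0.0380 in Wutou gluteal replicate 2 and 0.103 to 0.209 in the other libraries. TPI1 departed upward in Wutou gluteal replicate 3 and Sanfen gluteal replicate 3, where its ratio to ALDOA was 0.0755 and 0.0708 against a median of 0.0367. These are descriptions over libraries whose shared donkeys are not on record.

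**Figure D3:**
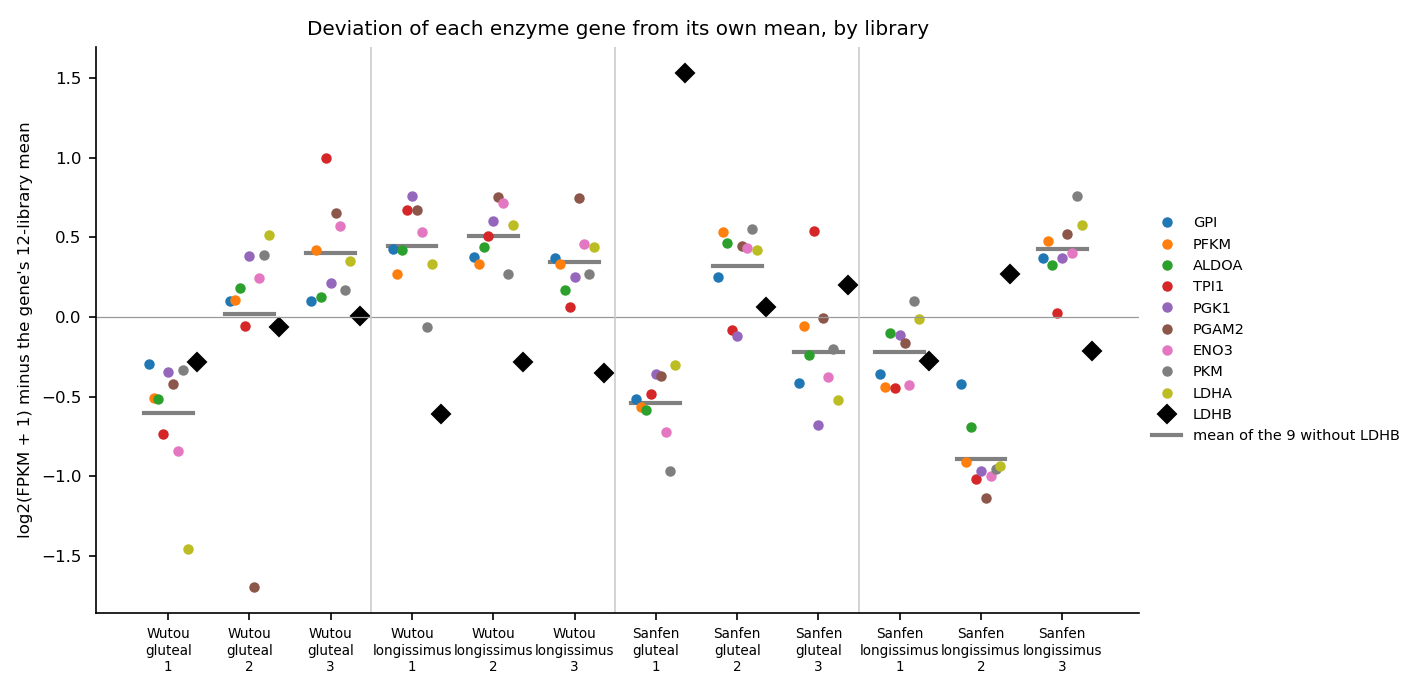
Deviation of each gene's log2(FPKM + 1) from its own mean over 12 libraries (vertical axis) in each library (horizontal axis), with circles for the 9 genes other than LDHB, a grey bar at their mean and black diamonds for LDHB. The circles lie together below 0 in Sanfen longissimus replicate 2 (mean -0.89), where the diamond is above 0, and the lone brown circle at -1.69 is PGAM2 in Wutou gluteal replicate 2.

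To ask whether the strains differ in the enzymes, Wutou was first set against Sanfen in longissimus muscle. The Wutou libraries averaged higher for 9 of the 10 genes and lower for LDHB, with a median log2 change of 0.59 against -0.056 over all loci tested. This background depends on level. Over the 3083 loci kept by a filter at FPKM 5, the median was 0.018 and 52.1% were higher in Wutou. PGAM2 averaged 1352 ± 40.3 FPKM in Wutou and 758 ± 401 FPKM in Sanfen (SD over 3 libraries each). Its log2 change was 0.98 (SE 0.54). ENO3 averaged 1707 ± 158 and 979.7 ± 482 FPKM (0.91, SE 0.44), TPI1 326 ± 67.3 and 179.7 ± 63.1 FPKM (0.89, SE 0.44), and PGK1 190.4 ± 32.9 and 118 ± 51.0 FPKM (0.77, SE 0.34), in Wutou and Sanfen in this order. None of the 10 passed the limma test adjusted over all 12408 loci, where 0.0161% of loci were called. Unadjusted, PGK1 alone of the 10 had a p under 0.05 (unadjusted p = 0.041, adjusted p = 0.854), against 5.52% of all loci. The adjusted p of the 10 genes lay between 0.854 and 0.958.

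The remaining enzymes moved less. PFKM averaged 443 ± 10.7 FPKM in Wutou longissimus and 317 ± 161 FPKM in Sanfen longissimus, a log2 change of 0.60 (SE 0.38). The change was 0.57 (SE 0.51) for LDHA, 0.53 (SE 0.27) for GPI, 0.50 (SE 0.33) for ALDOA and 0.19 (SE 0.45) for PKM. LDHB had a change of -0.34 (SE 0.34). PKM was the least different of the 10, with 202 ± 26.0 and 197 ± 107 FPKM, and its sign turned to negative under quantile normalization, array weights, equal summed FPKM and without Sanfen longissimus replicate 2.

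For ENO3, PGAM2, TPI1 and GPI all 3 Wutou longissimus libraries lay above all 3 Sanfen longissimus libraries, 4 of 10 genes, against 3.88% of all loci. The reverse held for LDHB, 1 of 10, against 7.92% of loci. Summed FPKM over all loci was itself higher in Wutou longissimus, 292854 ± 27137, than in Sanfen longissimus, 247414 ± 14423, without overlap. After every library was scaled to the same summed FPKM, a step chosen after seeing these sums, 0 of the 10 genes stood wholly above in Wutou longissimus (1.06% of loci did) and LDHB still stood wholly below, as 18.2% of loci did. The median change of the 10 genes was then 0.35, against -0.20 over all loci.

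The size of this difference rested on single libraries. Without Sanfen longissimus replicate 2, the library with the lowest fast fibre sum, the median change of the 10 genes was 0.34. Without Sanfen longissimus replicate 3, in which the 9 genes averaged 0.43 above their means, it was 0.95. In the fit without Sanfen longissimus replicate 3, 6 of the 10 genes had an unadjusted p under 0.05 and 0 passed. Of all loci 6.82% had such a p in this fit. The 9 genes moved together across libraries, so these are not 6 separate results. Most markers of fast fibres ran with the enzymes. Their summed FPKM was 19277 to 21217 in Wutou longissimus and 7513 to 17930 in Sanfen longissimus. TNNC2, with a mean of 8399 FPKM over all libraries, was the largest part of this sum. Of the 12 markers tested 11 were higher in Wutou (median log2 change 0.46) and 0 passed, with 3 at an unadjusted p under 0.05. TNNT3 and PVALB among the 11 were low, with means of 1.27 and 0.53 FPKM. The exception was MYH2, the only fast myosin heavy chain matched. It averaged 26.9 FPKM in Wutou and 76.8 FPKM in Sanfen longissimus (log2 change -1.34), with overlapping libraries. The summed slow fibre markers overlapped, at 2742 to 4704 FPKM in Wutou and 2608 to 5660 FPKM in Sanfen, while 8 of 11 were lower in Wutou (median -0.30), 0 passing and 1 at an unadjusted p under 0.05. The slow marker MYH7 and the fast markers MYH1 and MYH4 were not matched by name. Ribosomal protein genes were higher in Wutou for 68 of 72 (median 0.31), where 40.7% of all loci were higher. Their mean deviation was -0.78 in Sanfen longissimus replicate 2, and 0.086 and 0.13 in replicates 1 and 3. In Wutou longissimus it was 0.11 to 0.20. The 7 tendon and cartilage markers found summed to 20.8 to 28.6 FPKM in Wutou and 34.8 to 108 FPKM in Sanfen. The part of fibre composition, tendon tissue, ribosomal genes or library scaling in the enzyme differences was not tested, and in whole muscle fewer fast fibres and less enzyme RNA per fibre cannot be told apart.

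**Figure D4:**
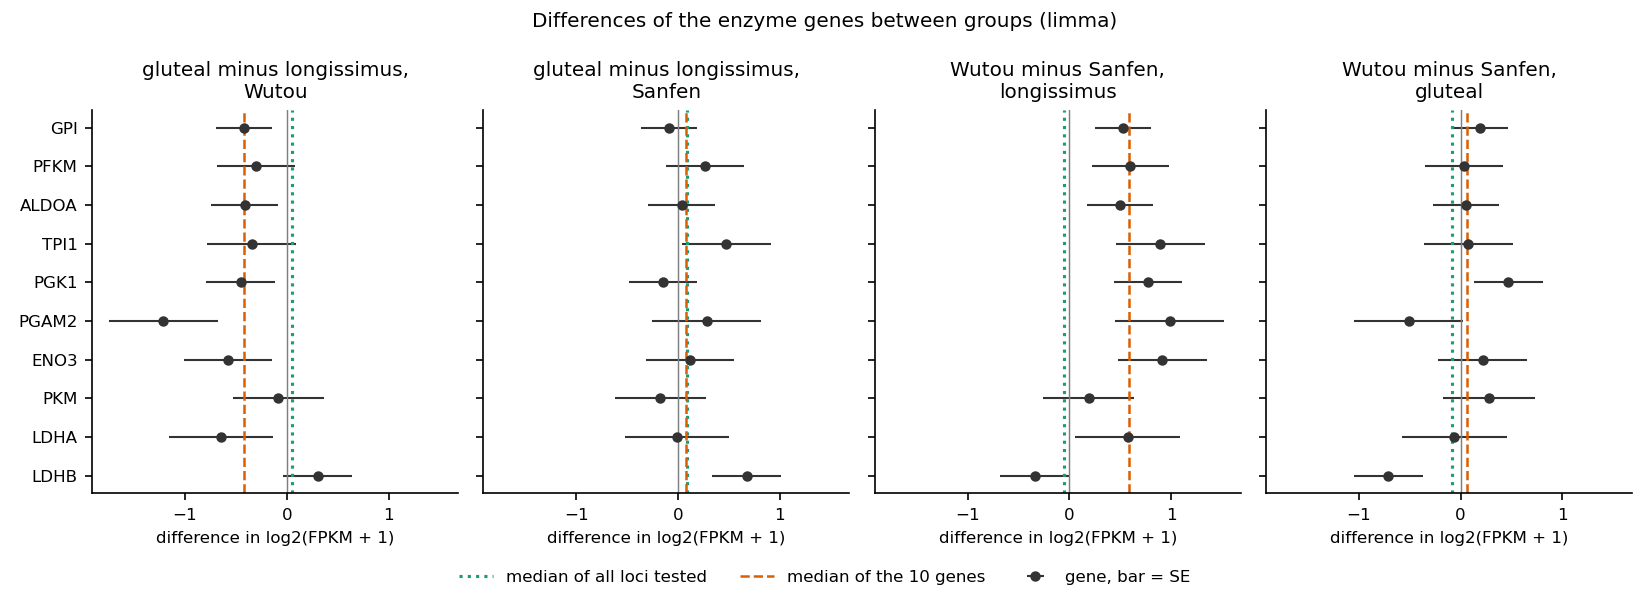
Difference in log2(FPKM + 1) of each of the 10 genes in 4 comparisons (panels), with the limma estimate as a point and its standard error as a bar, a dashed line at the median of the 10 genes and a dotted line at the median of all 12408 loci. The dashed line lies at -0.42 for the muscles in Wutou and at 0.59 for the strains in longissimus, and at 0.076 and 0.063 for the other comparisons, and 0 of the plotted estimates passed the test.

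Gluteal was compared with longissimus muscle within Wutou to ask whether the enzymes differ between hip and back. Gluteal libraries averaged lower for 9 of the 10 genes and higher for LDHB, with a median log2 change of -0.42 against 0.050 over all loci. With the filter at FPKM 5, the median over the loci kept was -0.035 and 45.5% were higher in gluteal muscle. PGAM2 differed most, with 716 ± 526 FPKM in gluteal and 1352 ± 40.3 FPKM in longissimus muscle (SD over 3 libraries each). Its log2 change was -1.21 (SE 0.54). LDHA averaged 311 ± 176 and 417 ± 35.7 FPKM (-0.65, SE 0.51), ENO3 1233 ± 542 and 1707 ± 158 FPKM (-0.58, SE 0.44), and GPI 128 ± 19.4 and 169.9 ± 3.54 FPKM (-0.42, SE 0.27), in gluteal and longissimus in this order. The limma test called 0 of the 10 genes and 0% of all loci, and PGAM2 alone had an unadjusted p under 0.05 (unadjusted p = 0.044, adjusted p = 0.870).

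Most of the other genes differed less. The change was -0.45 (SE 0.34) for PGK1, -0.41 (SE 0.33) for ALDOA, -0.35 (SE 0.44) for TPI1, -0.30 (SE 0.38) for PFKM and -0.084 (SE 0.45) for PKM. LDHB averaged 31.8 ± 3.41 FPKM in gluteal and 25.6 ± 3.10 FPKM in longissimus muscle, a change of 0.30 (SE 0.34). For PGAM2 and GPI all gluteal libraries lay below all longissimus libraries, 2 of 10 genes, against 4.18% of loci. No gene of the 10 stood wholly above, which 8.7% of loci did. With equal summed FPKM, GPI alone of the 10 stood wholly below (1.38% of loci), LDHB alone stood wholly above (15% of loci), and the median change of the 10 genes was -0.20 against 0.18 over all loci.

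Wutou gluteal replicate 1 carried much of this difference. Without it the median change of the 10 genes was -0.11, and the changes of TPI1 and PKM turned to 0.056 and 0.12. That library had a fast fibre sum of 13210 FPKM against 18457 and 20331 in the other Wutou gluteal libraries, and 9 of the 12 fast fibre markers tested averaged lower in gluteal muscle (median -0.21), 0 of them passing. The slow fibre markers ran the same way, with 9 of 11 lower (median -0.20), 0 passing and 1 at an unadjusted p under 0.05. Ribosomal protein genes averaged lower in gluteal muscle for 62 of 72 (median -0.23). Of all loci 58.6% averaged higher in gluteal muscle and 5.68% had an unadjusted p under 0.05. The part of these in the enzyme differences was not tested. Without Wutou gluteal replicate 2, in which PGAM2 measured 252 FPKM, the median was -0.51 and the PGAM2 change -0.61.

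The same muscles in Sanfen gave small and unstable differences. The 10 genes had a median log2 change of 0.076 between gluteal and longissimus muscle, against 0.085 over all loci. In gluteal muscle 6 of 10 averaged higher, against 67.6% of all loci. LDHB had the largest, with 59.0 ± 36.8 FPKM in gluteal and 33.1 ± 7.47 FPKM in longissimus (0.67, SE 0.34), which was 0.21 without Sanfen gluteal replicate 1. TPI1 came next, with 249.96 ± 91.5 and 179.7 ± 63.1 FPKM (0.47, SE 0.44). Slow fibre markers summed to 3705 to 7757 FPKM in gluteal and 2608 to 5660 FPKM in longissimus muscle, and their part in the LDHB difference was not tested. PKM had a change of -0.17 (SE 0.45), which turned to 0.21 without Sanfen gluteal replicate 1 and 0.22 without Sanfen longissimus replicate 3. All 10 genes overlapped between the muscles, while 6.27% of loci stood wholly above and 1.27% wholly below. The limma test called 0 of the 10 genes and 0.0242% of loci, with 0 of the 10 at an unadjusted p under 0.05, against 3.57% of loci. The median over the genes ran from -0.23 without Sanfen gluteal replicate 2 to 0.41 without Sanfen longissimus replicate 3, and 8 of the 10 genes changed sign in at least 1 of the 23 alternative fits.

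Within gluteal muscle Wutou and Sanfen were close for the enzymes other than LDHB. The median log2 change of the 10 genes was 0.063 against -0.086 over all loci, with 7 of 10 averaging higher in Wutou. Without Sanfen gluteal replicate 1 only 2 of 10 were higher (median -0.15), without Wutou gluteal replicate 3 only 3 of 10 (median -0.12), and 7 of the 10 genes changed sign in at least 1 alternative fit. LDHB averaged 31.8 ± 3.41 FPKM in Wutou and 59.0 ± 36.8 FPKM in Sanfen (-0.71, SE 0.34, unadjusted p = 0.059), and its Wutou libraries lay wholly below the Sanfen ones, 1 of 10 genes, against 8.68% of loci. The LDHB change was -0.24 without Sanfen gluteal replicate 1. Slow fibre markers ran the same way, at 2541 to 2780 FPKM summed in Wutou and 3705 to 7757 FPKM in Sanfen gluteal. Of the 11 tested, 10 were lower in Wutou (median -0.87), 0 passed and 5 had an unadjusted p under 0.05. Of all loci 34.2% were higher in Wutou and 4.86% had such a p. Tendon and cartilage markers summed to 18.7 to 34.8 FPKM in Wutou and 32.7 to 144 FPKM in Sanfen gluteal, highest in Sanfen gluteal replicate 1, with 3 of 3 tested lower in Wutou (median -1.08). The part of both lists was not tested. PGK1 averaged 141 ± 34.9 and 100.2 ± 19.3 FPKM (0.47, SE 0.34), and PGAM2 716 ± 526 and 853 ± 244 FPKM (-0.51, SE 0.54), in Wutou and Sanfen in this order, the PGAM2 change turning to 0.094 without Wutou gluteal replicate 2. None of the 10 stood wholly above in Wutou, which 2.19% of loci did. With equal summed FPKM, PGK1 stood wholly above (2.39% of loci) and LDHB wholly below (6.2% of loci). The limma test called 0 of the 10 genes and 0.00806% of loci, with 0 of the 10 at an unadjusted p under 0.05.

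The averaged comparisons and the interaction share these libraries and gave no call either. Averaged over strains, the gluteal minus longissimus median was -0.21 over the 10 genes and LDHB had 0.49 (SE 0.24, unadjusted p = 0.066), which was 0.25 without Sanfen gluteal replicate 1. In this comparison 0 of the 10 genes and 0% of loci were called, and 0 of the 10 had an unadjusted p under 0.05, against 6.56% of loci. Averaged over muscles, the Wutou minus Sanfen median was 0.30, PGK1 had 0.62 (SE 0.28, unadjusted p = 0.045, adjusted p = 0.814) and LDHB -0.53 (SE 0.27, unadjusted p = 0.079), with 0 of the 10 genes and 0% of loci called by limma. PGK1 was the only gene of the 10 with an unadjusted p under 0.05, against 5.97% of loci. The LDHB value was -0.28 without Sanfen gluteal replicate 1. Without the 2 Sanfen libraries that stood apart, the median of the 10 genes was 0.027. Both were low in the 9 genes other than LDHB (-0.89 and -0.54), so leaving them out lowers this median by construction. Wutou gluteal replicate 1, at -0.60, was kept. The interaction, the muscle difference in Wutou minus that in Sanfen, had a median of -0.51 and its lowest value in PGAM2 (-1.49, SE 0.76, unadjusted p = 0.073). Here 0 of the 10 genes were called, against 0.00806% of loci, and 0 had an unadjusted p under 0.05, against 2.60% of loci. The muscle differences of the 2 strains were thus not shown to differ for any of the 10 genes.

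The balance of the lactate dehydrogenase subunits was compared as the ratio of LDHA to LDHB within a library. It was 3.93, 13.2 and 11.2 in Wutou gluteal, 17.3, 16.2 and 15.5 in Wutou longissimus, 2.43, 11.3 and 5.33 in Sanfen gluteal, and 10.7, 3.80 and 15.4 in Sanfen longissimus. The A subunit prevailed in all 12 libraries, and the 3 Wutou longissimus libraries were above the other 9, by 15.5 against 15.4 at the nearest. The lowest ratios belonged to Sanfen gluteal replicate 1, Sanfen longissimus replicate 2 and Wutou gluteal replicate 1. On the log2 scale the ratio averaged 3.06 ± 0.95 in Wutou gluteal, 4.03 ± 0.081 in Wutou longissimus, 2.40 ± 1.11 in Sanfen gluteal and 3.10 ± 1.05 in Sanfen longissimus (SD, n = 3 libraries each).

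By an exact two-sided permutation test over libraries, which with 3 against 3 cannot go below p = 0.1, no difference in this ratio passed. Gluteal minus longissimus was -0.96 in Wutou (exact p = 0.1, adjusted over 4 comparisons 0.2) and -0.70 in Sanfen (exact p = 0.6, adjusted 0.6). The Sanfen difference was -0.14 without Sanfen gluteal replicate 1 and -1.29 without Sanfen longissimus replicate 2. Wutou minus Sanfen was 0.93 in longissimus (exact p = 0.1, adjusted 0.2) and 0.66 in gluteal muscle (exact p = 0.6, adjusted 0.6). The longissimus difference between strains was 0.34 without Sanfen longissimus replicate 2, and the gluteal one 0.11 without Sanfen gluteal replicate 1, the libraries with the highest slow fibre sums of their groups. The Wutou muscle difference was -0.42 without Wutou gluteal replicate 1.

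**Figure D5:**
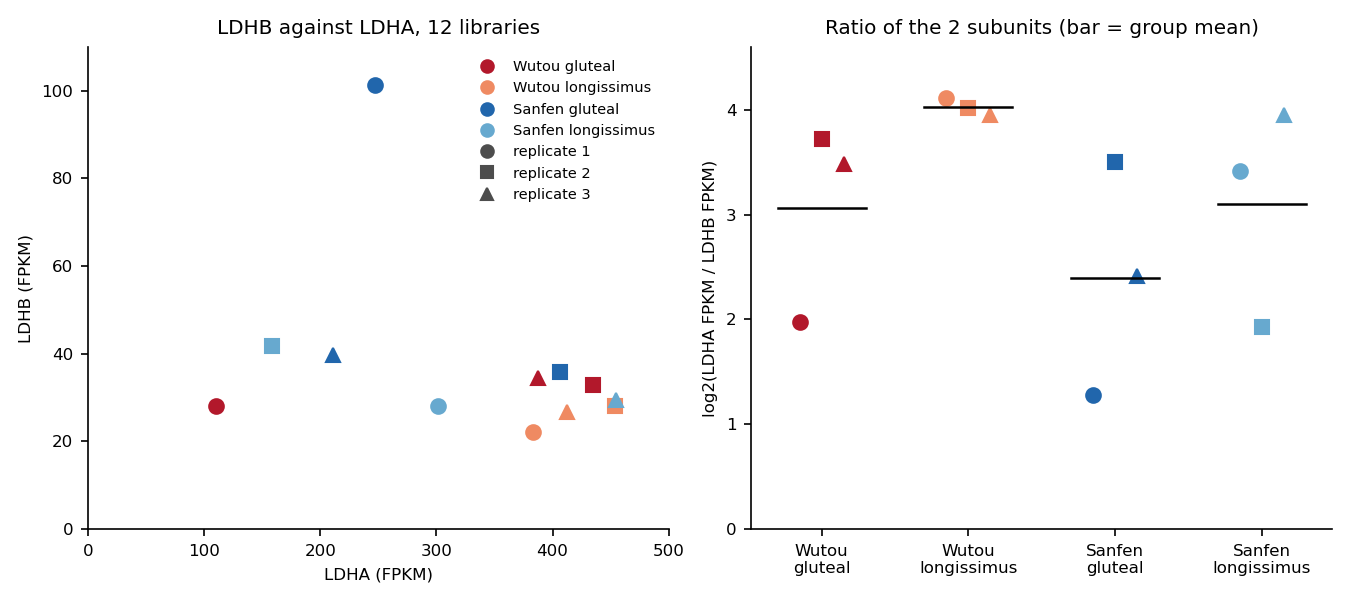
Left, LDHB against LDHA in FPKM for each of 12 libraries, and right, the log2 ratio of LDHA to LDHB by group with a bar at the group mean. Wutou longissimus lies at 4.03 with little spread, and the lowest point is Sanfen gluteal replicate 1, where LDHB reached 101 FPKM.

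Of the rest of the pathway, 0 genes passed the limma test in any comparison. The lists covered 15 other glycolytic enzymes (9 tested), 7 enzymes of fructose 2,6-bisphosphate and fructose bisphosphatase control (5 tested), 6 genes of glucose and glycogen entry, 17 genes of pyruvate, lactate and NADH exit (15 tested), and 17 regulators of glycolytic genes (13 tested). In longissimus muscle the other enzymes had a median Wutou minus Sanfen change of -0.13 with 4 of 9 higher. Of all loci 40.7% were higher, with a median of -0.056. The 10 muscle enzymes had a median of 0.59, and the difference between the lists was not tested. GAPDH, by far the most abundant of the 9, averaged 2707 ± 424 FPKM in Wutou and 1972 ± 622 FPKM in Sanfen (0.49, SE 0.27). The 2 with the lowest p were minor forms at low levels: PGAM1 averaged 1.97 ± 0.179 FPKM in Wutou and 3.02 ± 0.562 FPKM in Sanfen (log2 change -0.43, SE 0.15, unadjusted p = 0.016), and ALDOC 1.08 ± 0.550 and 2.75 ± 0.676 FPKM (-0.87, SE 0.32, unadjusted p = 0.020), in the same order.

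Some glucose and lactate carriers were among the other genes with low unadjusted p between strains. SLC16A1, the lactate and pyruvate carrier known from oxidative fibres, averaged 3.37 ± 0.212 FPKM in Wutou longissimus and 5.39 ± 0.462 FPKM in Sanfen longissimus (-0.55, SE 0.21, unadjusted p = 0.025), and 3.40 ± 0.999 and 5.51 ± 1.81 FPKM in gluteal muscle of Wutou and Sanfen (-0.55, SE 0.21, unadjusted p = 0.024). SLC16A3, the carrier known from fast fibres, averaged 11.96 ± 0.588 and 7.83 ± 4.74 FPKM in longissimus of Wutou and Sanfen (0.75, SE 0.40, unadjusted p = 0.087). Sanfen longissimus replicate 2 was low, at 2.52 FPKM, against 9.31 and 11.65 FPKM in replicates 1 and 3. In gluteal muscle SLC16A3 hardly differed, with 13.02 ± 4.23 and 13.08 ± 0.728 FPKM in Wutou and Sanfen (-0.056, SE 0.40, unadjusted p = 0.891). SLC2A3, a glucose transporter, averaged 0.620 ± 0.0390 and 1.43 ± 0.637 FPKM in longissimus and 0.765 ± 0.106 and 1.66 ± 0.834 FPKM in gluteal muscle of Wutou and Sanfen (unadjusted p = 0.029 and 0.030). In gluteal muscle SLC2A1, another glucose transporter, averaged 0.682 ± 0.147 FPKM in Wutou and 1.27 ± 0.162 FPKM in Sanfen (unadjusted p = 0.041), and TIGAR, a fructose 2,6-bisphosphatase, 4.08 ± 2.34 and 6.95 ± 0.297 FPKM (unadjusted p = 0.034). SLC2A3 and SLC2A1 lay near the filter of 1 FPKM. SLC2A4, a more abundant glucose transporter, changed by -0.45 in longissimus and 0.064 in gluteal muscle (unadjusted p = 0.325 and 0.886). The 6 entry genes had median changes of 0.020 and 0.050, in the same order. Every adjusted p among these carriers and TIGAR was at least 0.854. Averaged over muscles, the Wutou minus Sanfen change was -0.85 for ESRRG, a nuclear receptor known from oxidative muscle (SE 0.33, unadjusted p = 0.024, adjusted p = 0.793), and -0.47 for HK1 (SE 0.20, unadjusted p = 0.035, adjusted p = 0.802).

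Between the muscles, 12 of 15 exit genes (median 0.21) and 11 of 13 regulators (median 0.25) averaged higher in gluteal libraries over both strains, where 65.9% of all loci did. Of the 6 entry genes 4 averaged higher, and PYGM and PGM1 lower. PYGM, muscle glycogen phosphorylase, averaged 1243 ± 497 FPKM in gluteal and 1609 ± 331 FPKM in longissimus muscle of Sanfen (-0.44, SE 0.30), and PGM1, phosphoglucomutase, 189.5 ± 63.8 and 286 ± 39.5 FPKM in gluteal and longissimus of Wutou (-0.65, SE 0.34). In the other strain the change was -0.36 (SE 0.30) for PYGM in Wutou and -0.13 (SE 0.34) for PGM1 in Sanfen. EGLN1, an oxygen sensor that marks HIF1A for destruction, averaged 39.1 ± 5.56 FPKM in gluteal and 18.4 ± 16.5 FPKM in longissimus of Wutou (1.36, SE 0.60, unadjusted p = 0.042, adjusted p = 0.870). Averaged over strains, SLC16A7, a further lactate carrier, had a gluteal minus longissimus change of 0.81 (SE 0.31, unadjusted p = 0.023), MPC1, a subunit of the mitochondrial pyruvate carrier, 0.55 (SE 0.22, unadjusted p = 0.030), HIF1A, the hypoxia factor known to drive many glycolytic genes, 0.33 (SE 0.14, unadjusted p = 0.033) and MEF2A, a muscle transcription factor, 0.39 (SE 0.18, unadjusted p = 0.047). None of these passed, with adjusted p from 0.745 to 0.753 for the last 4.

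Outside the 10 genes, the loci whose profile over the 12 libraries was closest to their mean profile were found by the SD of the difference in log2(FPKM + 1). Among 9773 candidates with a symbol the median of this SD was 0.52, and the mean profile itself had an SD of 0.41. The 8 closest were DHRS7C at 0.12, RGS14 at 0.14, MYOZ1 and UBXN1 at 0.17, GAPDH, PPP1R1A and ZNHIT1 at 0.19 and RABGGTA at 0.20. MYOZ1, a Z-disc protein of fast fibres, averaged 670.2 FPKM, PPP1R1A, a phosphatase inhibitor, 1071 FPKM and DHRS7C, a reductase of the sarcoplasmic reticulum, 142 FPKM, while RGS14 averaged 1.76 FPKM. This is a description over 12 libraries, with no test.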

How the data were processed

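The deposited table gives FPKM per locus for 12 libraries, per the file headers, and its columns were matched to the samples by title. Per the labels, muscle was frozen on dry ice, RNA was taken up with Trizol and libraries were made with Illumina kits. Per the submitters' processing notes cutadapt, Bowtie2 and TopHat2 were used; versions, genome build and strand handling are not given in the sources used here. FPKM was used as deposited, without rescaling between libraries. All 10 members were also found by symbol in the RefSeq gene table, of another assembly, so no coordinates are printed.

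Testing was limited to loci that reached an FPKM of 1 in 3 or more libraries. Differences were tested with limma 3.58.1 (R 4.3.3) on log2(FPKM + 1), with 1 model over the 4 groups (8 residual degrees of freedom), a variance trend on the mean level, and p-values adjusted by Benjamini-Hochberg across 12408 loci (threshold 0.05). Fold changes on this scale understate those of low loci. For the strains averaged over muscles, libraries of 1 strain and number formed a random block (statmod 1.5.0). The model was checked on simulated data. It recovered 38% to 50% of loci changed by a log2 of 1 and 80% to 86% of loci changed by 2. Between 3 and 7 other loci were called in a comparison. A gene that was not called is thus not shown to be unchanged. The depth of libraries relative to each other came out at 0.911 to 1.05 from ratios of low values, but rested on 1.05% to 1.70% of the compared ratios and is weak.

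Whether equal replicate numbers pair the 2 muscles was checked. In Sanfen, deviations from the group means correlated at 0.25, 0.11 and 0.16 between libraries of the same number, each over 0.1, and in Wutou at 0.18, 0.17 and 0.07. Between the strains, whose libraries cannot share a donkey, libraries of the same number correlated at 0.083, 0.180 and -0.085 in longissimus. In gluteal muscle they correlated at 0.100, 0.135 and 0.125. No label states a pairing of the muscles by number, and these correlations alone cannot establish it.

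Members and gene lists were chosen with earlier results of these data known. Named beside the members are, genes drawn from the 2 of smallest unadjusted p in each pathway list and comparison, the paralogs of the muscle forms, and the 8 loci of closest profile. List genes were matched by name or RefSeq symbol. Other settings tried were array weights, quantile normalization, rescaling by median ratios, a filter at 5 or none, a pseudocount of 0.1, only the 6 libraries compared, summed loci of a name, the replicate block and each library left out; equal summed FPKM and leaving out 2 Sanfen libraries together were chosen after seeing the data. Exact tests used scipy 1.17.1, figures matplotlib 3.10.9, and tables pandas 2.3.3 with numpy 2.4.6 under Python 3.11.15.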

Additional observations from a re-analysis of the deposited data

How the results depend on the processing

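Across all fits 0 of the 10 genes passed in any of the 7 comparisons. The replicate block left 0 calls and the medians at -0.42 (muscles in Wutou), 0.076 (muscles in Sanfen) and 0.59 (strains in longissimus), and it changed no other call of the 10 genes; without the random block the strain median averaged over muscles stayed at 0.30. Over all alternatives the sign turned for 8 of the 10 genes between the muscles in Sanfen, 7 between the strains in gluteal muscle, 3 each in the muscles averaged over strains and in the interaction, 2 each between the muscles in Wutou and in the strains averaged over muscles, and 1 between the strains in longissimus. Among the changes given by value in the text, signs turned for PKM between the strains in longissimus, to -0.021 with quantile normalization, -0.14 with array weights, -0.051 with equal summed FPKM and -0.27 both without Sanfen longissimus replicate 2 and without the 2 Sanfen libraries that stand apart. PKM also turned between the muscles of Wutou, to 0.10 with quantile normalization, 0.13 with equal summed FPKM and 0.12 without Wutou gluteal replicate 1, and between the muscles of Sanfen, to 0.21 and 0.22 without Sanfen gluteal replicate 1 and Sanfen longissimus replicate 3. TPI1 turned to 0.056 in Wutou without Wutou gluteal replicate 1, and PGAM2 to 0.094 between the strains in gluteal muscle without Wutou gluteal replicate 2. Over single libraries left out, the change ran from -0.27 to 0.59 for PKM between the strains in longissimus, -0.24 to 0.12 for PKM in Wutou, -0.64 to 0.22 for PKM in Sanfen, -0.81 to 0.056 for TPI1 in Wutou and -1.08 to 0.094 for PGAM2 between the strains in gluteal muscle. The causes were not tested. Leaving out single libraries moved the median over the 10 genes between 0.34 and 0.95 for the strains in longissimus, -0.15 and 0.40 for the strains in gluteal muscle, -0.51 and -0.11 for the muscles in Wutou and -0.23 and 0.41 for the muscles in Sanfen. The other medians ran from 0.12 to 0.49 for the strains averaged over muscles, -0.35 to -0.025 for the muscles averaged over strains and -0.82 to -0.24 for the interaction. The unknown depth, 3 libraries per group and the lack of a record tying libraries to donkeys limit all comparisons.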
